A study of Mus musculus with 2 samples.

Results

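The genes of the glutathione and thioredoxin systems and of the enzymes that remove superoxide and peroxides were compared between the inner cell mass (ICM) and the whole mouse blastocyst at E3.75, counted in days after mating. They were chosen by symbol: the glutathione transferases (Gsta, Gstk, Gstm, Gsto, Gstp, Gstt, Gstz), glutathione peroxidases, peroxiredoxins, thioredoxins with their reductases and thioredoxin-domain relatives, glutaredoxins, superoxide dismutases, NAD(P)H quinone oxidoreductases, the enzymes of glutathione synthesis and recycling (Gclc, Gclm, Gss, Gsr), catalase and sulfiredoxin. The rule found 71 of the 19559 genes in the deposited table. There was 1 library of whole blastocysts and 1 library of ICMs freed by immunosurgery, which removes the outer trophectoderm with antibody and complement. Both came from crosses of B6CBAF1 females with CD-1 males, and how many embryos each library holds is unknown, being not given in the sources used here. Since the whole-blastocyst library contains its own ICM, the comparison shows which of these transcripts had higher or lower levels in the ICM library than in whole blastocysts. In such bulk samples, fewer cells of a type and less RNA per cell cannot be told apart. Only the ICMs went through immunosurgery. With 1 library of each kind, effects of that handling or of differing embryos cannot be told apart from those of the tissue.

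Cells convert superoxide to hydrogen peroxide with superoxide dismutases and then reduce the peroxide with catalase, glutathione peroxidases and peroxiredoxins. Glutathione is made by glutamate-cysteine ligase and glutathione synthetase and is recycled by glutathione reductase, while thioredoxins are recycled by thioredoxin reductases, and both cycles draw on NADPH. Glutathione transferases couple glutathione to reactive compounds, and many genes of these systems are targets of the transcription factor NRF2. The preimplantation embryo passes from the low-oxygen oviduct to the uterus at about the blastocyst stage, and oxidative stress is a known hazard of embryo culture.

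Reads on listed genes numbered 9271198 for whole blastocysts and 4125479 for ICMs. Levels are RPKM, read numbers corrected for gene length and for a total per library. Differences are log2((ICM RPKM + 1)/(whole-blastocyst RPKM + 1)), and a gene at 1 or more, or -1 or less, counts as at least 2-fold higher or lower. Ratios are ICM over whole-blastocyst RPKM, with the exact 95% counting interval in parentheses. A single library of each kind allows no test between the conditions, and every interval covers counting error only. Most genes had the lower RPKM in ICMs. Differences called centred therefore have the median of 3013 well-measured genes (RPKM at least 5 on both sides), which was -0.66, subtracted. The libraries matched their labels by lineage markers: all 12 trophectoderm markers were at least 2-fold lower in ICMs (summed RPKM 2465 and 78.7), 8 of 9 epiblast markers were at least 2-fold higher (43.5 and 287), and of 10 primitive endoderm markers 7 were higher and 2 lower. Of 8 blood markers, only Cd68 reached an RPKM of 1, and the globin genes Hbb-b1 and Hbb-b2 had no read. Of 9 cumulus and uterine markers 4 did, among them Cyp11a1 with 324 and 0 reads and Cyp19a1 with 0 and 91. The part of these markers' cells in the results below was not tested.

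Of the 71 genes, 48 reached an RPKM of 1 in at least 1 library, 14 had reads but stayed below it, and 9 had no read in either. Of the 48, 18 were at least 2-fold lower in the ICM library, 5 were at least 2-fold higher and 25 were within 2-fold. Among all 8981 genes measured in the same way 44.0% were lower and 8.96% higher, compared with 37.5% and 10.4% of the antioxidant genes, so neither share stands far from the background. The median difference was -0.50 for the antioxidant genes, whether the 2 genes without an ICM read stood as measured or at a floor of 3 reads, and -0.84 for all genes. After centring, 10 were lower and 8 higher, against a background of 20.5% and 16.9%, and the median became 0.16. The direction of the group as a whole thus depended on the scaling between the libraries. Among the 35 genes that reached an RPKM of 5 in at least 1 library, 13 were lower and 5 higher (background 48.7% and 6.80%), and 8 and 7 after centring (background 26.5% and 13.1%). Under the deposited scaling and 4 others (centring, TPM, scaling to the reads on listed genes and quantile normalization), 9 genes stayed at least 2-fold lower and 5 at least 2-fold higher throughout, and 16 of the 48 changed sign. The 9 were Gclc, Gsta1, Gstk1, Gstm2, Gstt2, Gstz1, Prdx4, Prdx5 and Txndc16. Among these 9, 6 rest on fewer than 10 ICM reads (Gsta1, Gstk1, Gstm2, Gstt2, Gstz1 and Prdx4). The 5 were Glrx, Gstm1, Gstm7, Nqo1 and Nqo2.

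**Figure D1:**
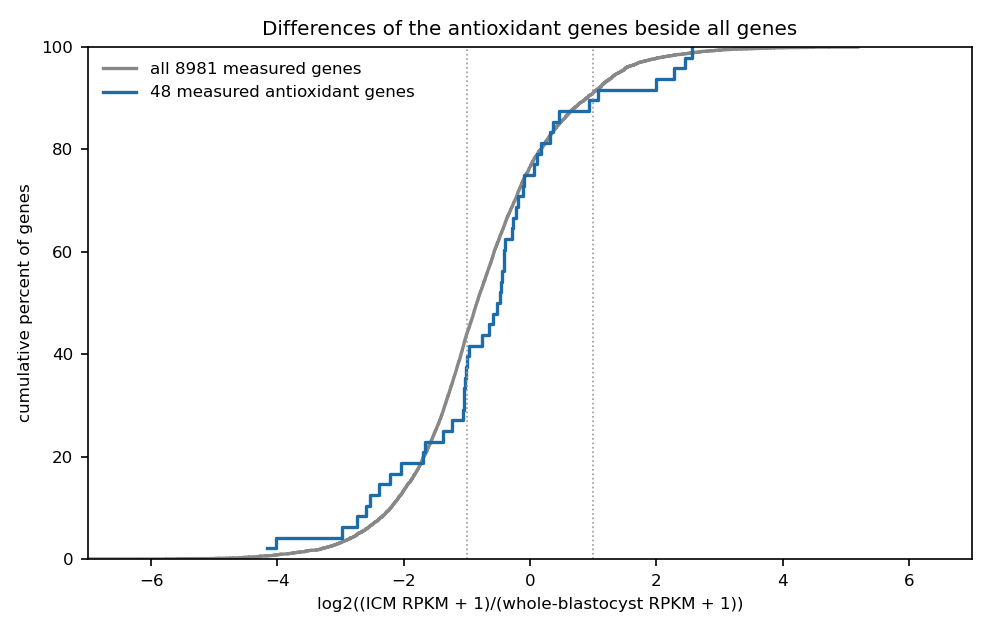
Cumulative percent of genes by their log2 difference between the ICM and whole-blastocyst libraries, for all 8981 measured genes (grey) and the 48 measured antioxidant genes (blue). Dotted lines mark 2-fold. The antioxidant curve lies to the right of that of all genes over most of its middle, with medians of -0.50 and -0.84.

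**Figure D2:**
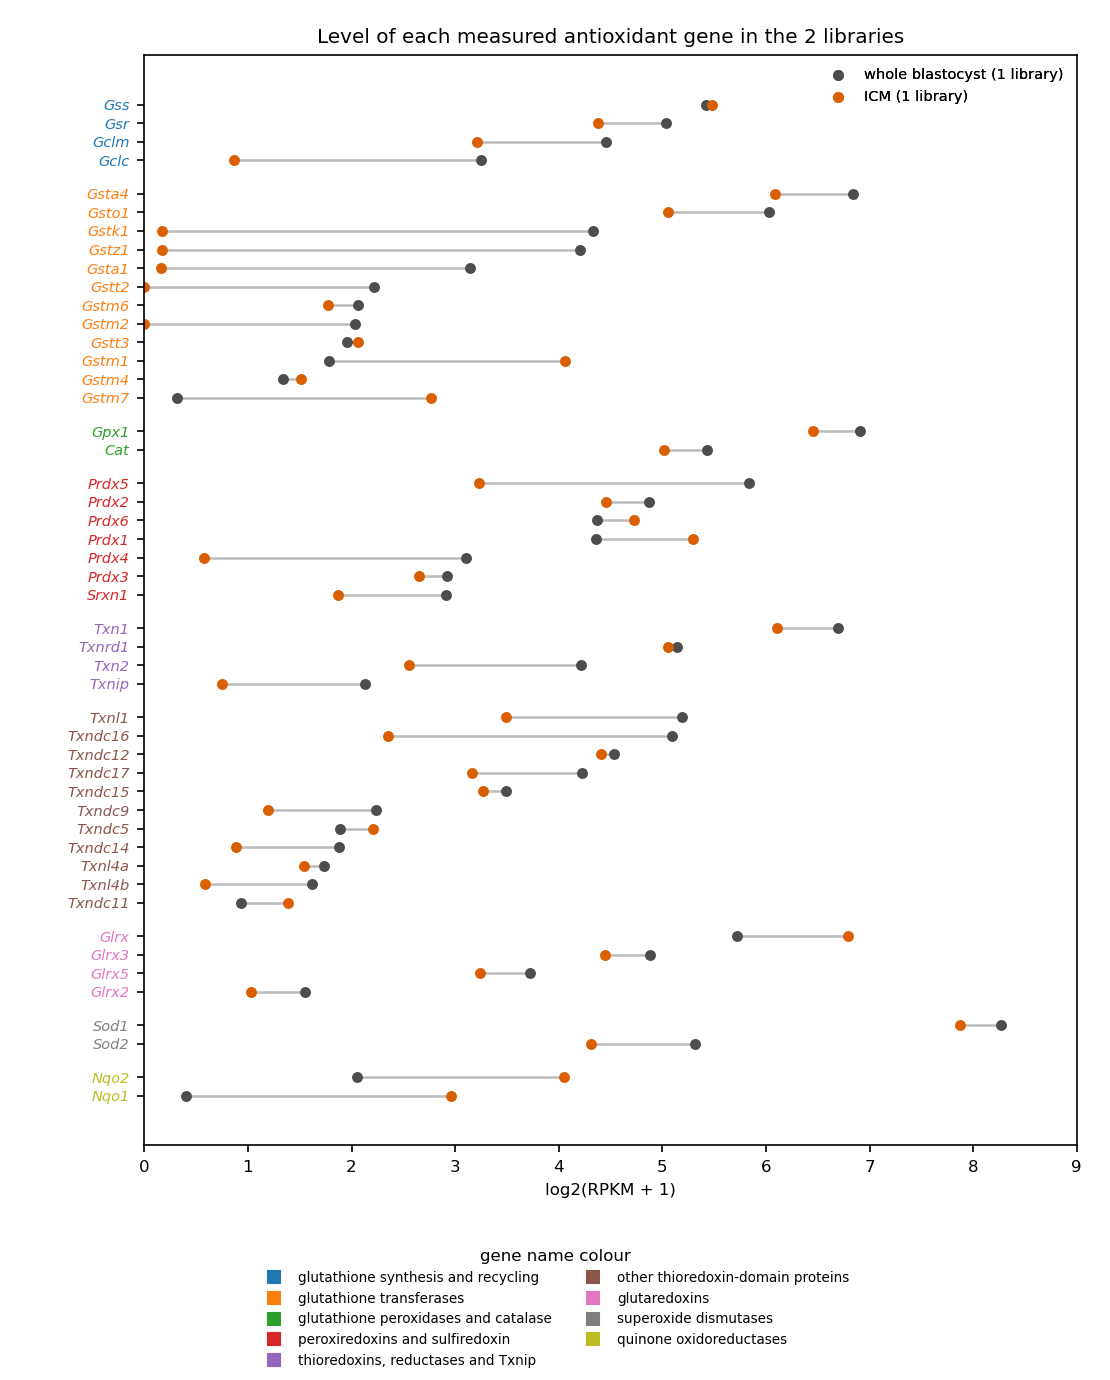
Level of each of the 48 measured genes as log2(RPKM + 1) in the whole-blastocyst library (grey) and the ICM library (orange), 1 library each, ordered by role. Sod1 was the most abundant in both libraries, and the longest lines to the left are those of Gstk1 and Gstz1.

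Together the 71 genes summed to an RPKM of 1385 in whole blastocysts and 1003.9 in ICMs, a ratio of 0.725, while the RPKM of all listed genes summed to a ratio of 0.514. They made up 0.776% and 1.095% of the summed RPKM of the 2 libraries. Sod1, the cytosolic copper-zinc superoxide dismutase, led this group with 22.1% of its summed RPKM in whole blastocysts and 23.2% in ICMs. By role, the summed RPKM was higher in ICMs for the glutaredoxins (94.2 and 140.4) and the quinone oxidoreductases (3.48 and 22.3) and lower for the other 7 roles, of which only the transferases and the other thioredoxin-domain proteins stay below equality after multiplication by 1.58, the factor of centring. Set against the 0.514 of all listed genes instead, the transferase ratio (0.537) was above it and the thioredoxin-domain ratio (0.463) below.

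**Figure D3:**
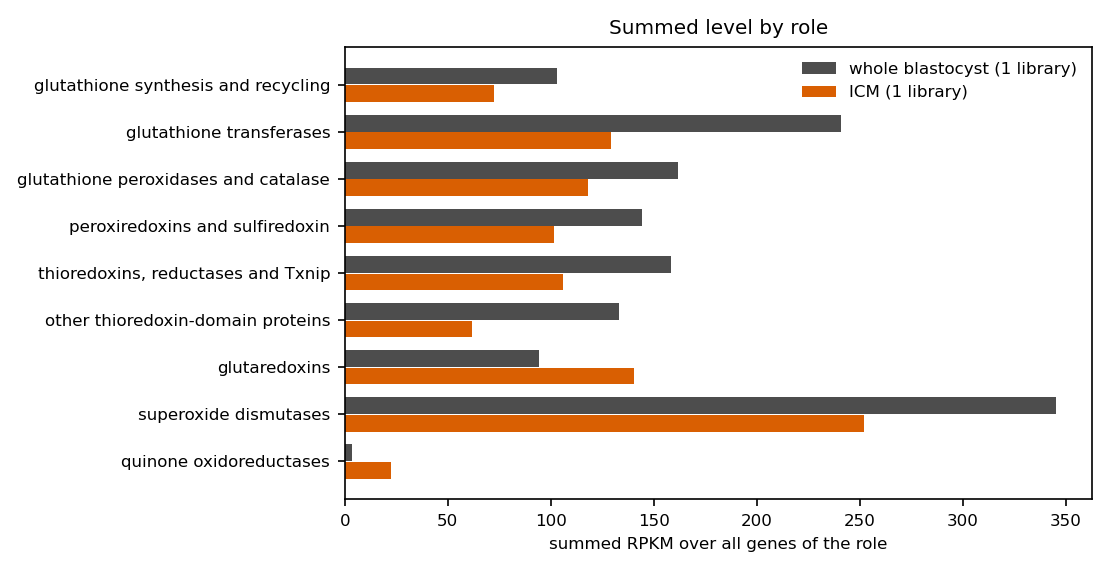
Summed RPKM of all genes of each role in the whole-blastocyst library (grey) and the ICM library (orange), 1 library each, so no error bar can be drawn. Superoxide dismutases had the highest sums (345.6 and 251.9), and the glutaredoxins and quinone oxidoreductases are the 2 roles with the longer orange bar.

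Of the 4 genes that make and recycle glutathione, Gclc differed most. Gclc, the catalytic subunit of glutamate-cysteine ligase, which sets the rate of glutathione synthesis, had an RPKM of 8.51 in whole blastocysts (234 reads) and 0.82005 in ICMs (19 reads). It was 10.4-fold lower in ICMs (6.496 to 17.5). Gclm, the modifier subunit that makes the enzyme more efficient, had 20.9 and 8.29 (395 and 132 reads) and was 2.52-fold lower (2.07 to 3.09). Gss, glutathione synthetase, which adds glycine in the last step, had 41.8 and 43.6 (1009 and 886 reads), a ratio of 1.04 (0.951 to 1.14), so its counting interval includes equality. Gsr, the reductase that recycles oxidized glutathione, had 31.7 and 19.8 (1451 and 762 reads), a ratio of 0.623 (0.5703 to 0.681), which is at the median of the 3013 genes used for centring (centred difference 0.00). The ratio of 2 genes within a library does not change when each library is scaled by a single factor. Quantile normalization is not such a scaling. Gclc RPKM was 0.407 of that of Gclm in whole blastocysts and 0.0989 in ICMs, 4.12-fold lower (2.45 to 7.24), and relative to Gss it was 10.8-fold lower in ICMs (6.695 to 18.4).

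Quinone oxidoreductases were higher in ICMs. NQO1 reduces quinones with NADPH or NADH and is a classic NRF2 target, and NQO2 is its relative that uses a different hydride donor. Nqo1 had an RPKM of 0.321 in whole blastocysts and 6.81 in ICMs (13 and 232 reads), a ratio of 21.2 (12.1 to 40.4). Nqo2 had 3.15 and 15.5 (47 and 195 reads), a ratio of 4.92 (3.57 to 6.92). The 2 genes were thus low in whole blastocysts and moderate in ICMs. The longest Nqo2 transcript shares 18.9% of its 50-base windows with Serpinb6a, which differed the other way (88.4 and 25.1).

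Glutathione transferases lay on both sides. Of the 21 genes 12 were measured, of which 5 were at least 2-fold lower and 2 higher, also after centring. These are 41.7% and 16.7%, beside 44.0% and 8.96% of all measured genes (20.5% and 16.9% after centring). Gstk1, the kappa-class enzyme of peroxisomes and mitochondria, had an RPKM of 19.2 and 0.125 (182 reads and 1 read), 153-fold lower in ICMs with a wide interval (27.2 to 6089). Gstz1, also known as maleylacetoacetate isomerase of tyrosine breakdown, had 17.4 and 0.129 (799 and 5 reads) and was 135-fold lower (57.4 to 416). These 2 genes had the largest differences of all antioxidant genes, and their ICM levels rest on a handful of reads. The alpha-class gene Gsta1 had 7.82 and 0.115 (81 reads and 1 read), 68.2-fold lower (11.9 to 2728). Gstt2 of the theta class (41 and 0 reads, RPKM 3.66 and 0) was at least 11.5-fold lower at a floor of 3 ICM reads, and at least 8.95-fold by the exact limit. The related Gstt3 had 2.88 and 3.18, a ratio of 1.104 (0.841 to 1.45).

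The mu-class genes, which lie side by side on chromosome 3 in the order Gstm5, Gstm7, Gstm6, Gstm3, Gstm2, Gstm1 and Gstm4, did not lie on 1 side. Gstm1 had an RPKM of 2.43 and 15.7 (57 and 310 reads), a ratio of 6.46 (4.85 to 8.72), and Gstm7 had 0.241 and 5.797 (7 and 142 reads), a ratio of 24.1 (11.4 to 60.98). Gstm2, which lies next to Gstm1, had 3.11 and 0 (61 and 0 reads), at least 17.1-fold lower at the floor of 3 reads and at least 13.5-fold by the exact limit. Gstm4 (1.53 and 1.84) and Gstm6 (3.18 and 2.42) had ratios of 1.21 (0.838 to 1.74) and 0.762 (0.507 to 1.13), so that neither is told apart from equality. As a class the mu genes summed to 11.1 in whole blastocysts and 26.7 in ICMs. The most abundant transferases were of other classes. Gsta4, which detoxifies the lipid peroxidation product hydroxynonenal, had 114 and 66.9 (1495 and 741 reads), a ratio of 0.588 (0.538 to 0.643). Gsto1, an omega-class enzyme with thiol transferase activity, had 64.2 and 32.2 (1419 and 600 reads), a ratio of 0.502 (0.455 to 0.553), just inside 2-fold.

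Among the glutathione peroxidases, Gpx1, the cytosolic selenoenzyme that reduces hydrogen peroxide, held almost all of the counted reads. It had an RPKM of 119 and 86.5 (3014 and 1847 reads), a ratio of 0.727 (0.686 to 0.771). Catalase, the peroxisomal enzyme for the same substrate, had 42.1 and 31.3 (1738 and 1089 reads), a ratio of 0.744 (0.689 to 0.803). Their proportion was not told apart between the libraries: Gpx1 RPKM was 2.82 times that of Cat in whole blastocysts and 2.76 times in ICMs, a change of 0.978 (0.888 to 1.08). Gpx4, which reduces lipid peroxides in membranes and guards against ferroptosis, had 1 read and 0 reads. Its transcript shares 61.7% of its 50-base windows with other annotated genes, the pseudogene Gpx4-ps2 among them. How reads of several origins were counted is unknown, so no level of Gpx4 is drawn from these reads. The share of Gpx1 in the family's transcripts is therefore unknown too. The other peroxidase genes, Gpx2, Gpx3, Gpx5, Gpx6, Gpx7 and Gpx8, had at most 18 reads in either library. To show where selenium enters these enzymes, the coding sequence around the selenocysteine codon is given for the abundant Gpx1, for Gpx4 and for Txnrd1, with the recoded TGA in capitals (GENCODE M21 transcripts, 5′ to 3′). In all, 7 of the 71 genes carry such a codon in that annotation (Gpx1, Gpx2, Gpx3, Gpx4, Txnrd1, Txnrd2 and Txnrd3). It is codon 47 of 201 in Gpx1, 129 of 253 in Gpx4 and 612 of 613 in Txnrd1.
Gpx1: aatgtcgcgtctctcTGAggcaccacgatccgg
Gpx4: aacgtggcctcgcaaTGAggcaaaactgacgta
Txnrd1: ctccagtctggctgcTGAggt

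The peroxiredoxins, thiol peroxidases that are reduced by thioredoxin, split by member. Prdx1, the main cytosolic form, had an RPKM of 19.5 and 38.2 (729 and 1202 reads), a ratio of 1.96 (1.78 to 2.15), with a log2 difference of 0.93, just inside 2-fold, and of 1.59 after centring. Prdx6, which uses glutathione and has phospholipase activity, had 19.6 and 25.5 (1533 and 1677 reads), a ratio of 1.298 (1.21 to 1.39). On the other side, Prdx5, found in mitochondria, peroxisomes and cytosol, had 56.05 and 8.39 (333 and 42 reads) and was 6.68-fold lower (4.84 to 9.44). Prdx5 was the most abundant peroxiredoxin transcript per length in whole blastocysts, and Prdx1 was in ICMs. The RPKM ratio of Prdx5 to Prdx1 was 2.87 and 0.219, 13.1-fold lower in ICMs (9.32 to 18.7). The Prdx5 transcript shares 29.7% of its windows with the gene Trmt112, and Prdx1 shares 10.9% with predicted genes. Prdx4, the form of the endoplasmic reticulum, had 7.61 and 0.488 but only 37 and 2 reads, 15.6-fold lower (4.02 to 133). Prdx2 had 28.2 and 20.9 (398 and 248 reads), a ratio of 0.7396 (0.629 to 0.869). The mitochondrial Prdx3 had 6.57 and 5.29 (193 and 131 reads), a ratio of 0.806 (0.6404 to 1.01). Srxn1, sulfiredoxin, which rescues over-oxidized peroxiredoxins, had 6.503 and 2.64 (692 and 237 reads), a ratio of 0.407 (0.349 to 0.472).

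In the thioredoxin system and under the deposited scaling, cytosolic Txn1 and Txnrd1 differed less than the mitochondrial thioredoxin gene Txn2 and cytosolic Txnip. Txn1 had an RPKM of 103 and 67.97 (2742 and 1531 reads), a ratio of 0.663 (0.622 to 0.706), and its reductase Txnrd1 had 34.4 and 32.2 (2702 and 2132 reads), a ratio of 0.937 (0.884 to 0.992). Txn2, the mitochondrial thioredoxin, had 17.5 and 4.88 (636 and 149 reads), 3.596-fold lower (3.004 to 4.33). Relative to Txn1 it was 2.38-fold lower in ICMs (1.97 to 2.899), a value that scaling each library by a single factor does not change. Txnrd2, the mitochondrial reductase, had 3 reads and 1 read, and Txnrd3, abundant in testis, had 16 and 0. Txnip, which binds thioredoxin and restrains glucose uptake, had 3.37 and 0.685 (210 and 36 reads), a ratio of 0.203 (0.139 to 0.291). Relative to Gsr, the glutathione arm's reductase, Txnrd1 RPKM was 1.08 times as high in whole blastocysts and 1.63 times in ICMs, a change of 1.502 (1.35 to 1.67).

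Of the 14 other thioredoxin-domain genes 11 were measured, with 5 past 2-fold lower and none past it higher, and 2 lower and 1 higher after centring. The 45.5% lower stands beside 44.0% lower and 8.96% higher of all measured genes (20.5% and 16.9% after centring). Txndc16, a luminal protein of the endoplasmic reticulum, showed the largest difference, with an RPKM of 33.1 and 4.11 (2268 and 237 reads), 8.06-fold lower (7.05 to 9.26). Txnl1, a cytosolic protein bound to the proteasome, had 35.5 and 10.3 (2446 and 597 reads), 3.45-fold lower (3.15 to 3.78). Txndc17 had 17.8 and 7.95 (857 and 323 reads), a ratio of 0.447 (0.392 to 0.509). Txndc9 (3.697 and 1.28) and Txnl4b (2.08 and 0.505) were lower by 1.04 and 1.03 on the log2 scale. Txndc14 (2.69 and 0.846) fell just short of the 2-fold line there and was not counted. At such low levels the pseudocount of 1 shrinks these differences. By RPKM ratio, Txndc9 was 2.89-fold lower (2.45 to 3.41), Txnl4b 4.12-fold (2.68 to 6.54) and Txndc14 3.18-fold (2.22 to 4.64). Of the other secretory-pathway members in this role, Txndc12 had 22.1 and 20.3 (748 and 579 reads), a ratio of 0.919 (0.823 to 1.03), and Txndc15 had 10.2 and 8.66 (258 and 184 reads), a ratio of 0.847 (0.697 to 1.03). The low Txndc5 (2.698 and 3.63) and Txndc11 (0.912 and 1.62) had ratios of 1.34 (1.09 to 1.66) and 1.78 (1.097 to 2.93). The spliceosome protein gene Txnl4a had 2.32 and 1.92. Txndc2, Txndc3 and Txndc8, known from sperm, had at most 4 reads.

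Glrx, the cytosolic glutaredoxin 1, which removes glutathione from protein thiols, was the most abundant gene of the whole set with a higher level in ICMs. Its RPKM was 51.6 and 110.2 (2106 and 3789 reads), a ratio of 2.14 (2.02 to 2.25), and its rank among all 19559 genes was 713 and 93. The other glutaredoxins were below equality before centring and above the centre after it. Glrx3, which serves iron-sulfur cluster handling, had 28.5 and 20.7 (848 and 520 reads), a ratio of 0.728 (0.651 to 0.813). Its mitochondrial counterpart in that task, Glrx5, had 12.2 and 8.47 (349 and 204 reads), a ratio of 0.694 (0.581 to 0.827), and Glrx2 had 1.93 and 1.04. Glrx made up 3.72% of the summed RPKM of the 71 genes in whole blastocysts and 10.97% in ICMs.

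Sod1 stood above Sod2 in both libraries. It had an RPKM of 307 and 233 (2402 and 1538 reads), a ratio of 0.76003 (0.712 to 0.811), and ranked 58 among all genes in whole blastocysts and 24 in ICMs. Sod2, the manganese enzyme of the mitochondrial matrix, had 38.9 and 18.8 (5409 and 2207 reads), a ratio of 0.484 (0.461 to 0.509), at the 2-fold line. Relative to Sod1 it was 1.57-fold lower in ICMs (1.45 to 1.703). Sod3, the extracellular form, had 1 read and 0 reads. Sod1 shares 23.1% of its windows with the predicted gene Gm8566.

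**Figure D4:**
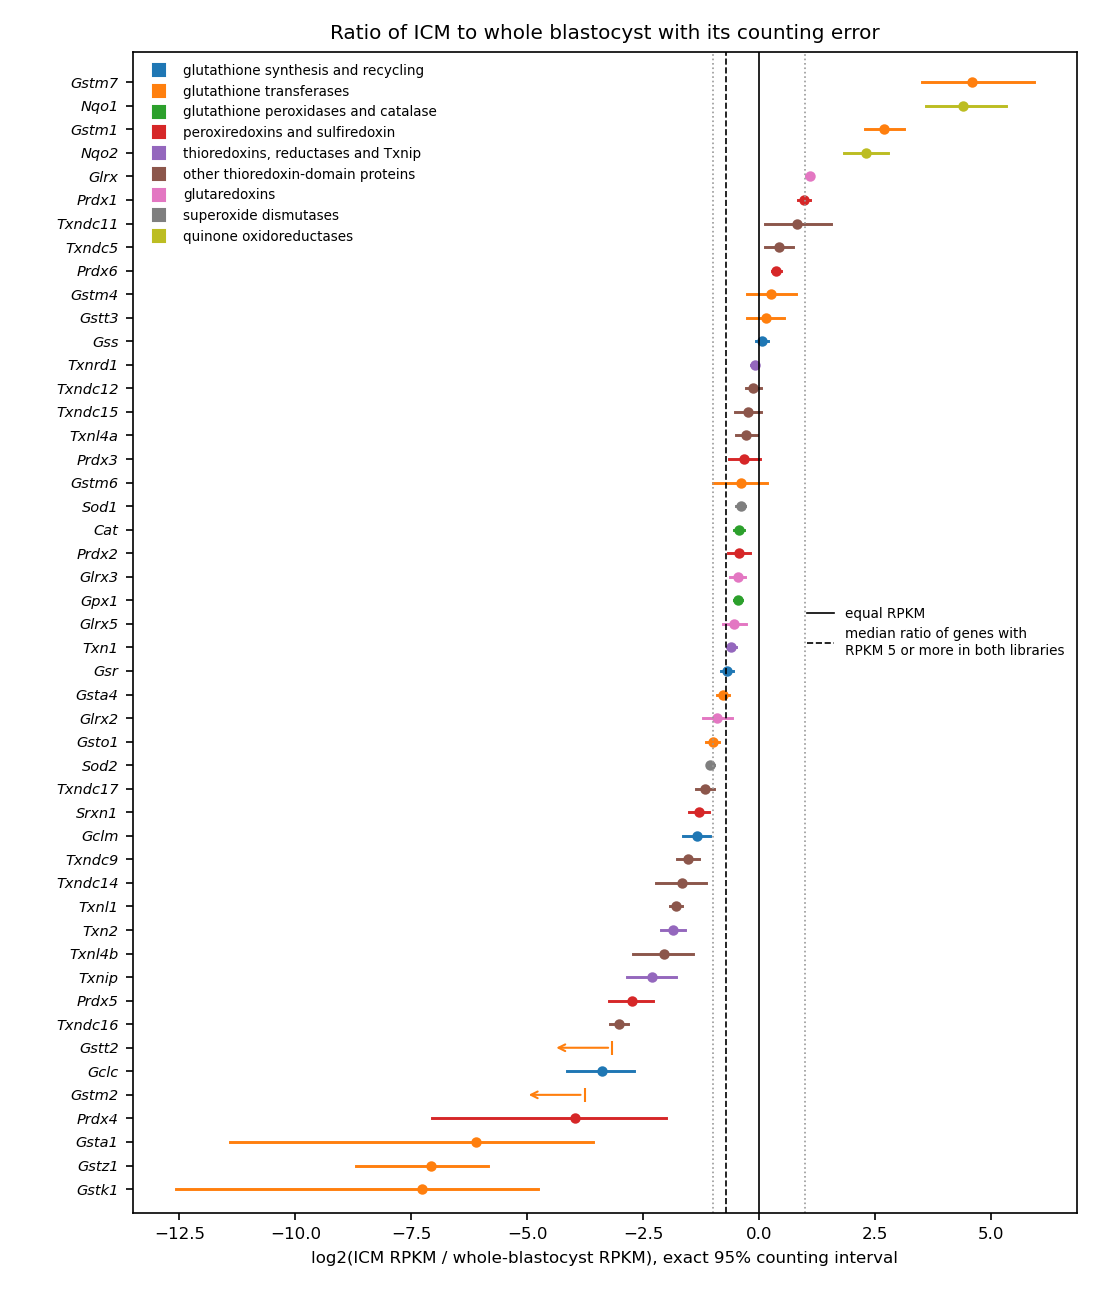
Log2 ratio of ICM to whole-blastocyst RPKM for the 48 measured genes, with exact 95% counting intervals and colours for roles. Arrows mark upper limits for Gstt2 and Gstm2, which had no ICM read. The dashed line is the median log2 ratio of 3013 genes at or above an RPKM of 5 on both sides (-0.70), and many abundant genes, among them Gsr and Txn1, lie close to it.

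By the exact counting interval and the deposited scaling, 32 of the 48 genes had a ratio below equality, 9 above it and 7 could not be told apart from it at this depth. Without the interval, 36 of the 48 lay below equality, beside 6876 of all 8981 measured genes. Most genes of either kind thus lay on the same side, and the count by interval was not made for all genes. Among genes whose protein is known from 1 main compartment, 12 of 33 measured cytosolic and nuclear genes lay at least 2-fold lower, with 5 higher (6 and 7 after centring). These are 36.4% and 15.2%, beside 44.0% and 8.96% of all measured genes (20.5% and 16.9% after centring). Of 5 measured mitochondrial genes (Txn2, Sod2, Glrx2, Glrx5 and Prdx3) 2 were lower and none higher. After centring none was past 2-fold, with Txn2 just inside the line (-0.9994). This depends on the placing of genes. Gstk1 was placed in the peroxisome with Cat, and Prdx5 was not placed, though both proteins are also found in mitochondria. Both genes stayed past 2-fold lower after centring (-3.51 and -1.94). Of 6 measured genes of the secretory pathway 2 were lower and none higher (2 and 1 after centring). The summed RPKM of the ICM was 0.797 of that of whole blastocysts for the cytosolic and nuclear genes, 0.499 for the mitochondrial and 0.504 for the secretory ones, and of these 3 only the first is above equality after centring. The mitochondrial and secretory ratios are near the 0.514 of all listed genes. Txndc16 alone held 33.1 and 4.11 of the secretory sums of 77.1 and 38.9.

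Genes that stayed under an RPKM of 1 in both libraries had at most 28 reads in either. The pi-class genes Gstp1 and Gstp2 were listed with no read in either library. Their transcripts share 62.3% and 72.6% of their 50-base windows with each other and a pseudogene. In all, 19 of the 71 genes share 10% or more of these windows with another gene, 12 of them measured and 5 of those past 2-fold (Gsta1, Gstm1, Nqo2, Prdx5 and Txnip). For Gsta1 the share was 89.7%, so its reads are uncertain, and for Gstm1 it was 23.1%. Nqo1, Gclc, Gstk1, Gstm7, Prdx4 and Gpx1 share none. Whether the sharing bears on any of the levels was not tested.

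Because several of these genes are known NRF2 targets, their promoters were searched for the antioxidant response element that NRF2 and small MAF proteins bind. The windows run from 250 bases before to 50 after each start in RefSeq (GRCm38.p6), a different build from that of the deposited table, and were matched by symbol for 62 of the 71 genes. On both strands TGACNNNGC stands in 11 of the 62 genes (17.7%) and in 3781 of all 27025 genes with a window. Counted over windows, of which a gene can have several, the shares were 12.9% of 85 and 12.4% of 32851. The narrower TGANTCAGC, which contains the AP-1 core and overlaps the former where N is C, was found in 4 of 62 genes (6.45%) compared with 1.37% of all 27025 genes, but 2 of the 4 were Gstp1 and Gstp2, which had no read, and among measured genes it was in 2 of 41. Either motif stood in 14.7% of all genes and in 8 of the 41 measured antioxidant genes (19.5%), of which 2 were among 15 at least 2-fold lower genes and 1 among 5 higher ones. The windows below are those of Nqo1, a known NRF2 target that was higher in ICMs, and of 5 of the 8 measured genes with a motif, chosen with their log2 differences known: Gstm7 (2.45), Prdx1 (0.93), Txnrd1 (-0.09), Srxn1 (-1.04) and Gclm (-1.24). Gstm7 has 2 windows and Txnrd1 has 3. For each of these genes the window with the motif is printed, and no other window of it has a motif. Capitals mark the motifs as they stand on the printed strand, so that a motif on the other strand appears as its reverse complement. The windows lie on the minus strand for Nqo1 (chr8:107403156-107403455) and Gstm7 (chr3:107931565-107931864), and on the plus strand for Prdx1 (chr4:116685349-116685648), Txnrd1 (chr10:82858956-82859255), Srxn1 (chr2:152105274-152105573) and Gclm (chr3:122245307-122245606).
Nqo1: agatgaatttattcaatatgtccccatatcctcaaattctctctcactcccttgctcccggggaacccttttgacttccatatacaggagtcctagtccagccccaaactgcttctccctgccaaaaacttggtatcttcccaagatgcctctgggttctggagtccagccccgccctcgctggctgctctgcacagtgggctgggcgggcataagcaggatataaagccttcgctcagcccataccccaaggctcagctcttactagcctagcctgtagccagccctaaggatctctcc
Gstm7: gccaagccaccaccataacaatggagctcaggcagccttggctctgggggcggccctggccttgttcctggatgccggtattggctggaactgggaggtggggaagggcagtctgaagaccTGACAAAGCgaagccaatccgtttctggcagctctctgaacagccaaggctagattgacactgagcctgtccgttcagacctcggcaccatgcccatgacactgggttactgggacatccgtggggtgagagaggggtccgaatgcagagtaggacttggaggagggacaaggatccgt
Prdx1: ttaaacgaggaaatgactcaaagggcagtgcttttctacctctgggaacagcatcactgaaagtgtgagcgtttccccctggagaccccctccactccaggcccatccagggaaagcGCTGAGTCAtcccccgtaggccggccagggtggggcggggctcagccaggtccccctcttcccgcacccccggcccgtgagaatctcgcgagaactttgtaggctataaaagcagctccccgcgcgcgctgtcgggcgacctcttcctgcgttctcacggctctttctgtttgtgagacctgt
Txnrd1: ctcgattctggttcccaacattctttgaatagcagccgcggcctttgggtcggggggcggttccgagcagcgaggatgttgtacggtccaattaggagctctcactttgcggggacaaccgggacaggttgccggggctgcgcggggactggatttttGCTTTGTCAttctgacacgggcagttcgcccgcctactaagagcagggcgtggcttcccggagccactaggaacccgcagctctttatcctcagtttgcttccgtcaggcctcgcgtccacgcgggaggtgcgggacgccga
Srxn1: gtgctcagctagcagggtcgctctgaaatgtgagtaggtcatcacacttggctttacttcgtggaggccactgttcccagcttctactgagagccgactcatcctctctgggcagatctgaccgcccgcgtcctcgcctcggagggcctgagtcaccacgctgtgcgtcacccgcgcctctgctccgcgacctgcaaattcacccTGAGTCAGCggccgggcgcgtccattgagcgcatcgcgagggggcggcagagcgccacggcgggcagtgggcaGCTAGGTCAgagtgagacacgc
Gclm: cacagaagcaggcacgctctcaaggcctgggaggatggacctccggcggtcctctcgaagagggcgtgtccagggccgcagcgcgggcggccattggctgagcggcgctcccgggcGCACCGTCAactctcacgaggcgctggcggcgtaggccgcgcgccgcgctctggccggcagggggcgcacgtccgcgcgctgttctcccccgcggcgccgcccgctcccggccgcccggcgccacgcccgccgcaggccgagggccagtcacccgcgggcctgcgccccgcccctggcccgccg
Nqo1 has neither motif in this window. The motif nearest to the start among the others is that of Srxn1, which has TGAGTCAGC at -45 from its start and a further match at 28. Prdx1 has TGACTCAGC on the other strand at -133, and Gstm7 has TGACAAAGC at -129. The measured genes with a motif had differences from -1.24 (Gclm) to 2.45 (Gstm7), while all measured antioxidant genes reached from -4.16 (Gstk1) to 2.56 (Nqo1). No match says only that these letters are not in these windows.

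A list for NRF2 control and the haem response held 19 other genes, among them relatives of NRF2 and enzymes of haem breakdown. Of these genes 17 were measured, with 10 at least 2-fold lower in ICMs and 1 higher (4 and 1 after centring, median -1.13 compared with -0.84 for all genes). These are 58.8% and 5.88%, beside 44.0% and 8.96% of all measured genes (20.5% and 16.9% after centring). Nfe2l2, which encodes NRF2, had an RPKM of 14.4 and 8.11 (1082 and 512 reads), a ratio of 0.562 (0.505 to 0.625). Keap1, the adaptor that sends NRF2 to degradation, had 7.56 and 1.92 (387 and 83 reads), 3.93-fold lower (3.09 to 5.04). Cul3, the ubiquitin ligase scaffold that works with KEAP1, had 129.6 and 27.9 and was 4.65-fold lower (4.22 to 5.12). The partner gene Mafg was 6.34-fold lower (5.31 to 7.62), the kinase gene Gsk3b 3.59-fold (3.48 to 3.701) and the biliverdin reductase gene Blvrb 5.24-fold (2.96 to 9.97). Hmox1, haem oxygenase 1 and a further NRF2 target, had 7.55 and 3.62 (240 and 97 reads), a ratio of 0.4797 (0.375 to 0.6098). Thus under the deposited scaling Nqo1 was higher in ICMs while Hmox1, Srxn1, Gclm and Gclc had lower values. After centring, Hmox1 (-0.23), Srxn1 (-0.38) and Gclm (-0.58) were within 2-fold, and only Gclc (-1.73) stayed past it. Prdx1 and Txnrd1, which have a motif in the windows above, had ratios of 1.96 and 0.937. The 1 higher gene was Nfe2l3, a relative of NRF2, named after its values were seen, with 1.01 and 4.66 (70 and 272 reads).

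NADPH feeds both reductase cycles. Of 19 genes of its supply 17 were measured, with 10 at least 2-fold lower and 1 higher (7 and 1 after centring, median -1.31). These are 58.8% and 5.88%, beside 44.0% and 8.96% of all measured genes (20.5% and 16.9% after centring, median -0.84). G6pdx, the entry enzyme of the pentose phosphate pathway, had 6.03 and 0.2601 (220 and 8 reads), 23.2-fold lower (11.6 to 54.3). Idh2, the mitochondrial NADP-dependent isocitrate dehydrogenase, had 18.6 and 0.672 (295 and 9 reads), 27.6-fold lower (14.3 to 60.99), and Taldo1, transaldolase, was 14.6-fold lower (7.95 to 29.6). Mthfd2 of mitochondrial folate metabolism was 9.14-fold lower (6.75 to 12.6). The gene on the other side was Idh1, the cytosolic isocitrate dehydrogenase, also named after its values were seen, with 50.1 and 109.6 (2116 and 3904 reads), a ratio of 2.19 (2.08 to 2.31). Pgd, the next NADPH-making enzyme after G6pdx and likewise named after its values were seen, had 37.6 and 31.1.

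Of 23 genes of cysteine and glutathione supply and breakdown 15 were measured, with 5 lower and 3 higher (1 and 3 after centring, median -0.17). Their shares, 33.3% and 20.0%, stand beside 44.0% and 8.96% of all measured genes (20.5% and 16.9% after centring). Ggt1, which splits extracellular glutathione, had 1.77 and 9.55 (24 and 109 reads), a ratio of 5.39 (3.44 to 8.77). The heavy chain of the cystine and amino acid exchangers, Slc3a2, had 18.95 and 8.55, a ratio of 0.451 (0.401 to 0.507), while its cystine partner Slc7a11 had 4 reads and 0 reads. The drug and conjugate exporter gene Abcc4 (12.95 and 6.46) and Dpep3 (20.7 and 15.9) were within 2-fold. Of 17 other glutathione-using enzymes 10 were measured, with 4 lower and none higher (3 and none after centring, median -0.54). The 40.0% lower stands beside 44.0% lower and 8.96% higher of all measured genes (20.5% and 16.9% after centring). The prostaglandin E synthase gene Ptges was 13.5-fold lower (12.02 to 15.3) and the microsomal transferase gene Mgst3 6.82-fold (4.28 to 11.5), whereas Clic1 (20.4 and 10.98) and Adh5 (48.5 and 61.2), which clears nitrosoglutathione and formaldehyde, were within 2-fold.

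Of 9 genes that make selenoproteins 8 were measured, with 3 lower and none higher (3 and 2 after centring, median -0.69). The 37.5% lower stands beside 44.0% lower and 8.96% higher of all measured genes (20.5% and 16.9% after centring). Trnau1ap, which binds the selenocysteine tRNA, had 120 and 0 reads, at least 33.7-fold lower at the floor of 3 reads and 26.99-fold by the exact limit. Pstk, the kinase that prepares this tRNA, was 4.18-fold lower (3.102 to 5.73) and Secisbp2l 6.102-fold (5.37 to 6.95). Sephs2, which makes the selenium donor, had 6.31 and 10.05, a ratio of 1.59 (1.43 to 1.77).

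**Figure D5:**
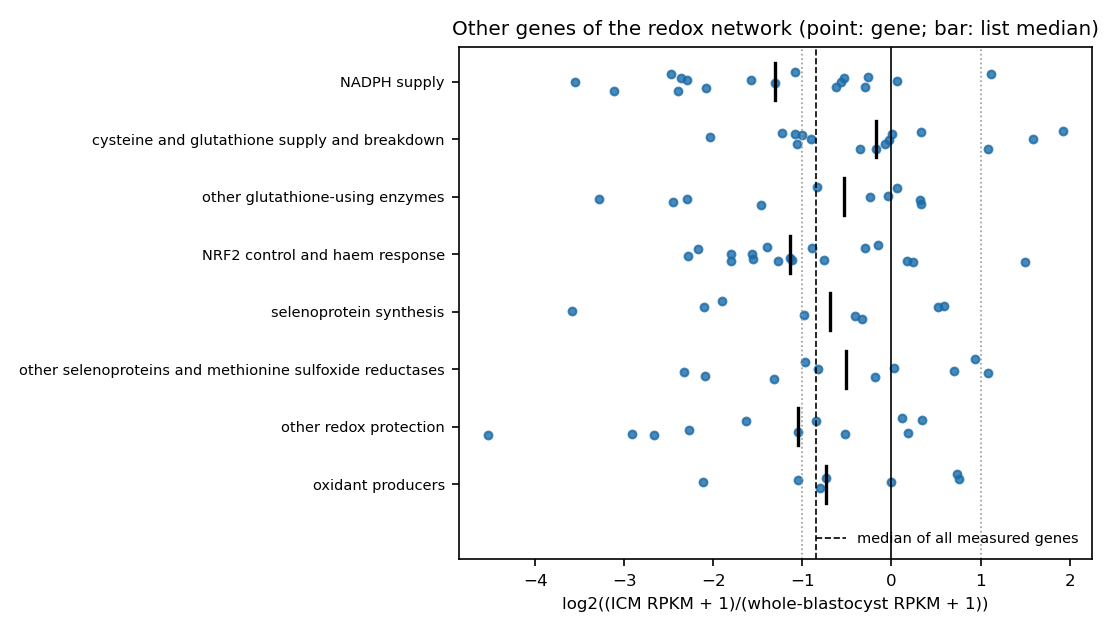
Log2 difference between the libraries for each measured gene of 8 other lists of the redox network (points), with the median of each list (short bar), the median of all measured genes (dashed line) and 2-fold (dotted lines). NADPH supply has the lowest list median (-1.31) and cysteine and glutathione supply and breakdown the highest (-0.17).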

How the data were processed

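Per the labels' protocols, RNA of 1 whole-blastocyst and 1 ICM sample was purified by PicoPure kit, NuGEN Ovation amplification followed, and SOLiD fragment libraries were sequenced. For each gene and library the deposited table holds a read count and an RPKM, per the file headers. Processing notes of the submitters name mm9 as the build. Unknown, since not given in the sources used here, are aligner, annotation, strand use and how reads of several origins were treated. The ICM total behind the deposited RPKM was 0.842 of the whole-blastocyst total, whereas listed read counts summed to 0.445. Why they differ is not given there.

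The members and gene lists were chosen with earlier results of these data known. Symbols were stripped of trailing spaces before the rule was applied, and older symbols were matched through RefSeq. All differences used a pseudocount of 1 and genes reaching an RPKM of 1 in either library. Intervals are exact conditional (Clopper-Pearson) 95% intervals from read counts, computed with Python 3.11.15 and scipy 1.17.1. For pairs of genes they are conditional intervals of the odds ratio, and the pairs were chosen after values were seen. Reads of amplified cDNA with no molecular identifiers are not independent molecules, so the intervals cover counting error only. On simulated Poisson counts the intervals covered the true ratio in 94.9% to 95.7% of cases. Such counts follow the model the intervals assume, so this checks the calculation only and not the coverage on these reads. Measured members were named with both values, and those with an RPKM of 5 or more were given reads or ratio and interval. From each other list up to 4 genes with the largest difference and an RPKM of 5 or more were named, with Nfe2l2, Keap1, Hmox1, G6pdx, Slc7a11 and Ccs. Other named genes were chosen after their values were seen. Of the genes this rule selects, 1 is not reported here. Sequence sharing is the share of 50-base windows of a gene's longest coding transcript found in another gene of GENCODE M21, on either strand.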

Additional observations from a re-analysis of the deposited data

How the results depend on the processing

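The count of lower genes (18), the count of higher genes (5) and the median difference (-0.50) were recomputed under 9 alternatives and 1 more added after seeing the data. A pseudocount of 5 gave 9 lower genes and a median of -0.38. Other scalings turned the median positive, to 0.16 by centring, 0.40 by TPM, 0.35 by scaling to the reads on listed genes and 0.35 by quantile normalization. The lower genes then numbered 10, 10, 9 and 9 and the higher ones 8, 12, 9 and 9, in the same order. Leaving out a set of 17 genes gave 3 higher genes and a median of -0.76. That set held Gsta, Gstm and Gstp paralogs together with Txn1, Prdx1, Prdx6, Sod1, Gpx1 and Gpx4. Leaving out genes that share 10% or more of their 50-base windows, the added alternative, gave 3 and -0.62. A pseudocount of 0.1, no filter on low values and a minimum RPKM of 5 kept both counts within 1.5 times and moved the median by less than 0.1. None of the 23 genes past 2-fold changed sign under any alternative that kept it. No paired analysis was possible because there is 1 library per group. Of the 18 lower genes, 6 rest on fewer than 10 ICM reads, and with no replicate the spread between embryos is unknown.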

Other observations

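Of all measured genes 44.0% were at least 2-fold lower in the ICM library and 8.96% higher, with a median of -0.84. After centring these shares were 20.5% and 16.9%. Of 15 other redox protection genes 11 were measured, of which 6 were past 2-fold lower and none past it higher (4 and none after centring, median -1.05). The metallothionein gene Mt2, a zinc and copper binding protein that also scavenges radicals, had RPKMs of 812 for whole blastocysts and 107 for ICMs (8440 and 937 reads), 7.59-fold lower (7.09 to 8.13). Pon2, a paraoxonase of intracellular membranes, had 32.04 and 0.432 (1233 and 14 reads), 74.2-fold lower (44.1 to 136). Nudt1, which clears oxidized nucleotides, was 6.51-fold lower (4.79 to 9.02). Aifm2, which reduces ubiquinone and guards against ferroptosis, had 56 reads and none, at least 15.7-fold lower at a floor of 3 reads and 12.4-fold by the exact limit. Ccs, the copper chaperone of SOD1, had 8.05 and 5.31, a ratio of 0.659 (0.473 to 0.912).

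Of 14 other selenoproteins and methionine sulfoxide reductases 10 were measured, with 3 lower and 1 higher (2 and 3 after centring, median -0.50). Their shares, 30% and 10%, stand beside 44.0% and 8.96% of all measured genes (20.5% and 16.9% after centring). Msrb1, listed under its older symbol Sepx1, had 4.94 and 11.6 (104 and 205 reads), a ratio of 2.34 (1.84 to 2.99), whereas Msrb2 was 10.6-fold lower (6.15 to 19.8). Selenoi was 2.905-fold lower (2.68 to 3.15), and Selenok had 7.17 and 3.18. Of 23 genes of oxidant producers 7 were measured, with 2 lower and none higher (1 and 2 after centring, median -0.73). The 28.6% lower compares with 44.0% of all measured genes. Ero1a, listed as Ero1l, which makes peroxide during disulfide formation, had 5.98 and 2.39, a ratio of 0.399 (0.331 to 0.478).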
